A study of Mus musculus with 4 samples.

Results

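The interferon-stimulated genes examined here were 45 named mouse genes, each found by its gene name among 54621 names and listed once in each of the 4 deposited tables. They were 34 genes of the type I interferon type, namely 23 antiviral effectors, 7 sensors of nucleic acids and 4 transcription factors, and 11 GTPases that interferon gamma induces. Their RNA was sequenced from the large bowel of germ-free mice, animals kept free of any microbe. All mice were given azoxymethane (AOM), a carcinogen, followed by 3 cycles of dextran sodium sulfate (DSS) at 1%, which damages the bowel epithelium, and tissue was taken at week 36. The 4 libraries were polyps of Clec7a-/- mice (KO polyp), polyps of wild-type mice (WT polyp), non-polyp tissue of Clec7a-/- mice (KO non-polyp) and non-polyp tissue of wild-type mice (WT non-polyp). Clec7a codes for Dectin-1, the beta-glucan receptor of myeloid cells. Each library was RNA pooled from several mice, and each group had 1 library, so there is no replicate error and no p-value, and each difference is one between 2 pools. WT mice had been purchased as germ-free animals and KO mice had been delivered by caesarean section and fostered, so genotype and source cannot be told apart. The study's text describes polyps in germ-free WT but not KO mice, yet it also reports RNA from polyps of germ-free KO mice. What the library labelled KO polyp was taken from is therefore uncertain.

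Type I interferons signal through a receptor of Ifnar1 and Ifnar2 to a complex that includes Stat2 and Irf9 and binds the interferon-stimulated response element (ISRE) of its target genes. Interferon gamma signals through Ifngr1 and Ifngr2 to genes with gamma-activated sites (GAS). Many genes answer to both, and lambda interferons reach the first set through Ifnlr1 and Il10rb, chiefly in epithelial cells. In the gut these genes are best known for antiviral defence and for responses to microbes.

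Clec7a was at 0.102 TPM in KO polyps, against 31.2 TPM in WT polyps, and at 0.0766 TPM in KO non-polyp tissue, against 5.97 TPM in WT non-polyp tissue, as the labels say. TPM, transcripts per 1000000, is a level corrected for gene length. The 3 tables that give coverage correspond to between 2.14 and 2.19 gigabases of aligned sequence per library, and members were covered there at a mean of between 0.732 and 91.3 reads per base. The fourth, KO non-polyp, gives no coverage, so its depth is unknown. The 12 pan-epithelial markers were present in all 4 libraries, with sums between 12033 and 14684 TPM, although 2 of them, Krt18 and Cldn4, were lower in KO polyps than in WT polyps. Leukocyte markers, in contrast, summed to 1882 TPM in the KO polyp library and to between 129 and 204 TPM in the other 3.

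All 45 members were above 0 in all 4 libraries, at between 0.406 TPM (Mx2 in KO non-polyp tissue) and 136.7 TPM (Irf1 in KO polyps). Irf1 and Irf7 reached the highest levels, and Mx2, Ifi204 and Gbp6 stayed under 5 TPM in every library. In 28 of the 45 members the WT polyp library held the highest level, and in 14 the KO polyp library did. Over all 14283 gene names at 5 TPM or more in their highest library, the WT polyp library was highest for 46.8% and the KO polyp library for 22.9%. KO non-polyp tissue held the lowest level of 25 of the 34 type I type members and of 2 of the 11 GTPases, beside 24.9% of those names. WT non-polyp tissue held the lowest level of 8 of the 11 GTPases, beside 25% of those names.

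**Figure D1:**
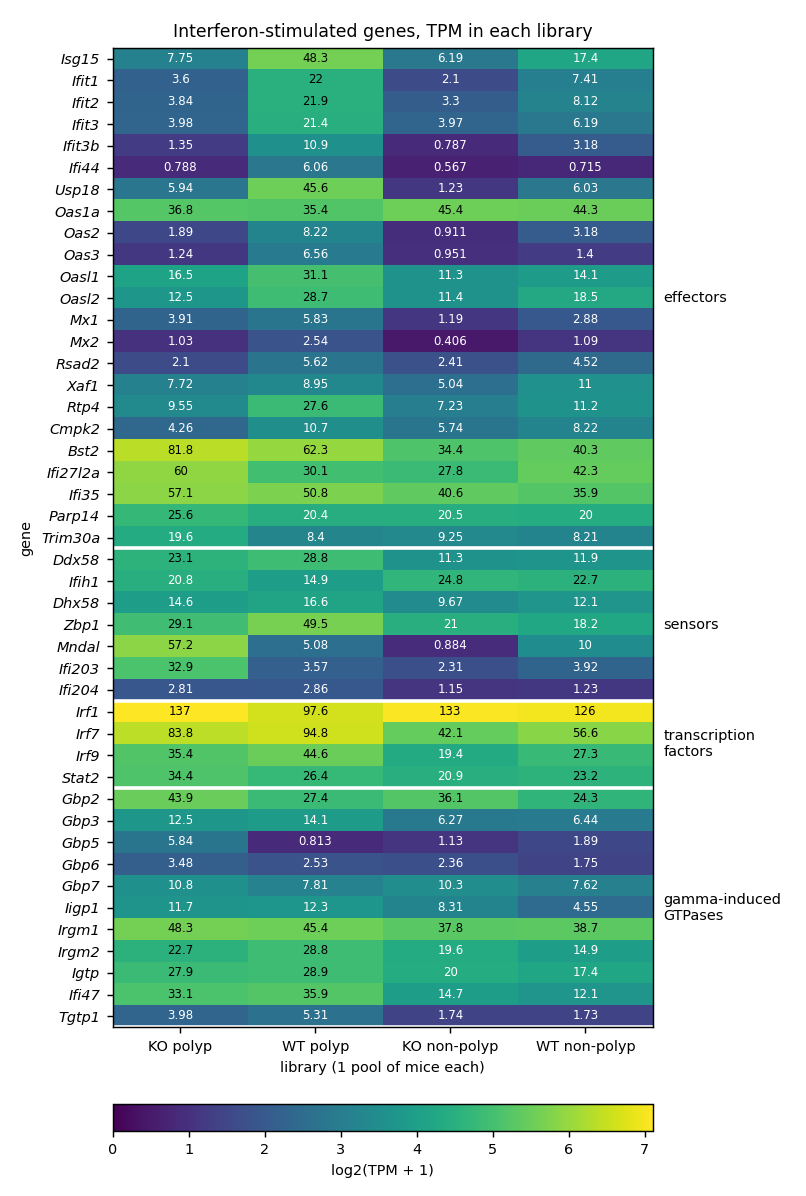
TPM of the 45 members (rows, grouped by role) in the 4 libraries (columns), coloured by log2(TPM + 1). Isg15, the Ifit genes and Usp18 are brightest in the WT polyp column, while Mndal and Ifi203 are brightest in the KO polyp column, at 57.2 and 32.9 TPM.

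For the comparison of genotypes in polyps, levels were set against each other as the log2 ratio of TPM + 1, KO over WT, and a gene past 1 is called higher and one past -1 lower. The 1 added to both levels understates the change of genes at low levels. Of the 45 members, 13 were lower and 4 were higher in KO polyps. Over all 54621 gene names compared, 4.29% were lower and 5.06% higher. Among names that reached 5 TPM in at least 1 of the 2 libraries, 12.1% were lower and 13.9% higher, and all 17 called members were among the 42 members at that level. The 13 lower members were all antiviral effectors, so 13 of 23 effectors fell, while none of the 7 sensors, 4 transcription factors and 11 GTPases did. The median log2 ratio was -1.14 over the effectors, -0.02 over the sensors, 0.10 over the transcription factors and -0.05 over the GTPases, beside -0.09 over all names at 5 TPM or more. With 5 TPM added in place of 1, 7 members were lower and 2 higher, while the names called went to 1177 lower and 1404 higher, against 2343 lower and 2763 higher with 1 added.

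Usp18, the protease that removes Isg15 from proteins and restrains signalling at the type I receptor, was furthest down. It was at 5.94 TPM in KO polyps against 45.6 TPM in WT polyps, a log2 ratio of -2.75. Isg15, a small protein of ubiquitin type that is joined to other proteins, was at 7.75 TPM in KO polyps against 48.3 TPM in WT polyps, a log2 ratio of -2.49. In both genes the WT polyp library stood above the other 3, which held 6.19 to 17.4 TPM of Isg15 and 1.23 to 6.03 TPM of Usp18. Isg15 lies on chromosome 4 at 156199424-156200818 and Usp18 on chromosome 6 at 121245906-121270917 (GRCm38, as in the files).

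The Ifit genes, whose proteins bind foreign RNA and block its translation, stand side by side on chromosome 19 at 34550694-34650009, and all 4 were lower. Ifit1 was at 3.60 TPM in KO polyps against 21.98 TPM in WT polyps (log2 ratio -2.32). Ifit2 was at 3.84 TPM in KO against 21.9 TPM in WT (log2 ratio -2.24), and Ifit3 at 3.98 TPM in KO against 21.4 TPM in WT (log2 ratio -2.17). Ifit3b was at 1.35 TPM in KO polyps against 10.9 TPM in WT polyps (log2 ratio -2.34). In KO polyps the highest of the 4 was at 3.98 TPM. Ifit3 and Ifit3b are near copies: 51.2% of the stretches of 50 bases in Ifit3 transcripts also occur in another gene, all of these in Ifit3b, so the split of reads between the pair is uncertain.

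The 2'-5' oligoadenylate synthetases, which sense double-stranded RNA and activate RNase L, were not alike. On chromosome 5 at 120730333-120907521, Oas2 was lower, at 1.89 TPM in KO polyps against 8.22 TPM in WT polyps (log2 ratio -1.68). Its neighbour Oas3 was also lower, at 1.24 TPM in KO polyps against 6.56 TPM in WT polyps (log2 ratio -1.75). Oas1a, in the same cluster, was at 36.8 TPM in KO polyps against 35.4 TPM in WT polyps, a log2 ratio of 0.05. Of its 50-base stretches 57.6% also occur in Oas1g, so the level of Oas1a alone is uncertain. With the locus assembled from the reads in place of the annotated gene, Oas2 was at 4.30 TPM in KO polyps against 8.22 TPM in WT polyps (log2 ratio -0.80) and Oas3 at 2.89 TPM in KO against 6.56 TPM in WT (log2 ratio -0.96), so both calls were lost. They were also lost with 5 TPM added in place of 1, at -0.94 for Oas2 and -0.89 for Oas3. The related Oasl2 was lower, at 12.5 TPM in KO against 28.7 TPM in WT (log2 ratio -1.14), and Oasl1, at 16.5 TPM in KO against 31.1 TPM in WT (log2 ratio -0.87), did not pass the threshold.

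The other lower effectors were Ifi44, Rtp4, Cmpk2 and Rsad2. Ifi44, a gene named for its induction, was at 0.788 TPM in KO polyps against 6.06 TPM in WT polyps (log2 ratio -1.98). Rtp4, a receptor-transporting protein with antiviral action, was at 9.55 TPM in KO polyps against 27.6 TPM in WT polyps (log2 ratio -1.44). Cmpk2, a nucleotide kinase, and Rsad2 (viperin), which makes a chain-terminating nucleotide, are neighbours on chromosome 12 at 26442746-26479837. Cmpk2 was at 4.26 TPM in KO polyps against 10.7 TPM in WT polyps (log2 ratio -1.15), and Rsad2 at 2.10 TPM in KO against 5.62 TPM in WT (log2 ratio -1.09). Rsad2 lost its call in 3 of 10 settings, at -0.89 with FPKM (fragments per kilobase scaled to depth), at -0.69 with the assembled locus and at -0.58 with 5 TPM added. With 5 TPM added the calls of Ifi44 (-0.93), Oasl2 (-0.95) and Cmpk2 (-0.76) were lost too.

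Effectors that were not lower included Bst2, the most abundant one in the polyps of both genotypes. Bst2 (tetherin), which holds budding viruses at the cell surface, was at 81.8 TPM in KO polyps against 62.3 TPM in WT polyps (log2 ratio 0.39). Ifi35 was at 57.1 TPM in KO polyps against 50.8 TPM in WT polyps (log2 ratio 0.17), and Parp14, an ADP-ribosyltransferase, at 25.6 TPM in KO and 20.4 TPM in WT (log2 ratio 0.32). Ifi27l2a, at 60.0 TPM in KO polyps against 30.1 TPM in WT polyps (log2 ratio 0.97), stood just inside the threshold. It passed the threshold under median-of-ratios scaling (1.03) and quantile normalization (1.05). Mx1 and Mx2 code for antiviral GTPases that many inbred mouse strains carry in a nonfunctional form, and the annotation lists Mx2 as a polymorphic pseudogene. They were at log2 ratios of -0.47 and -0.80, but with the assembled locus both were called lower, at -1.04 and -1.92, and Mx2 was so with 0.1 TPM added in place of 1, at -1.22. Xaf1, which promotes cell death, was at -0.19. Trim30a, a ubiquitin ligase of mice, was the only effector called higher, at 19.6 TPM in KO polyps against 8.40 TPM in WT polyps (log2 ratio 1.13, and 0.88 with 5 TPM added).

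**Figure D2:**
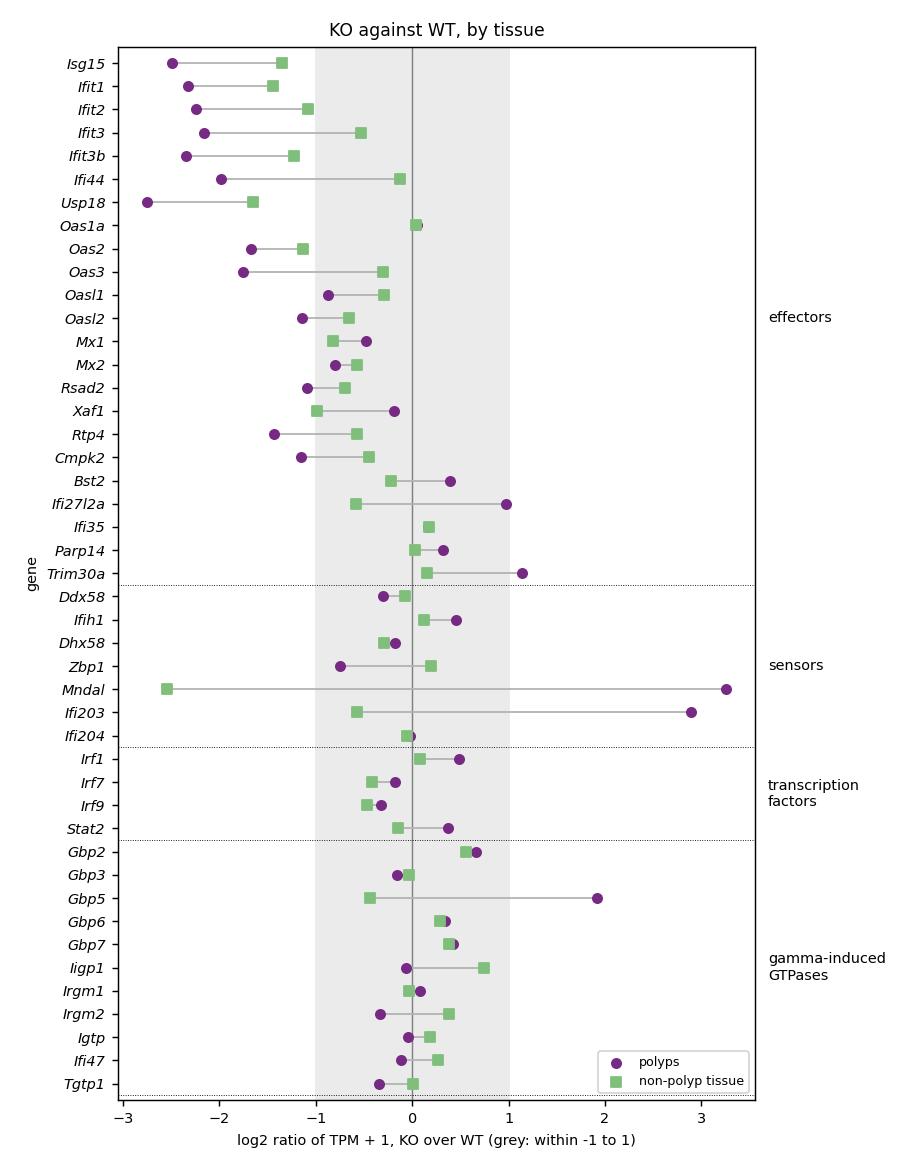
Log2 ratio of TPM + 1, KO over WT, for each member in polyps (circles) and in non-polyp tissue (squares), with 1 library per group and the range from -1 to 1 in grey. The effectors from Isg15 to Oas3 lie left of grey in polyps except Oas1a at 0.05, while Gbp5 at 1.92 is the only GTPase outside grey in either tissue.

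Among the sensors, the RNA helicases Ddx58 (RIG-I), Ifih1 (MDA5) and Dhx58 (LGP2) were at log2 ratios of -0.31, 0.46 and -0.18 in KO over WT polyps. Zbp1, which binds nucleic acids in the Z form and can start necroptosis, was at 29.1 TPM in KO polyps against 49.5 TPM in WT polyps (log2 ratio -0.75). Mndal and Ifi203, members of the HIN-200 family of DNA-binding proteins on chromosome 1, were the only sensors past the threshold, and both were higher. Mndal was at 57.2 TPM in KO polyps against 5.08 TPM in WT polyps (log2 ratio 3.26). Ifi203 was at 32.9 TPM in KO polyps against 3.57 TPM in WT polyps (log2 ratio 2.89), whereas Ifi204 was near equal at 2.81 TPM in KO polyps against 2.86 TPM in WT polyps. With the assembled locus, which in WT polyps also held Mndal and Ifi203, Ifi204 was at a log2 ratio of -1.61.

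The HIN-200 values carry a limit of the annotation. In the files Mndal spans 173849126-173942491 on the minus strand and Ifi203 spans 173920407-173942672 on the same strand, so that the listed intervals overlap, and 19.6% of the 50-base stretches of Mndal and 12.4% of those of Ifi203 occur in another gene. Mean coverage of Mndal was 6.35 reads per base in KO polyps and 0.732 in WT polyps, and of Ifi203 24.4 in KO polyps and 2.76 in WT polyps. No locus assembled from the reads was found for either gene on its strand in KO polyps, so their higher calls could not be checked that way. Other genes of the family on the list of further interferon-induced genes were higher in KO polyps too. They were Ifi209, at 31.5 TPM in KO polyps against 2.14 TPM in WT polyps, Ifi208 at 7.52 TPM in KO against 0.154 TPM in WT, Ifi213 at 4.56 TPM in KO against 0.419 TPM in WT and Ifi205 at 6.19 TPM in KO against 1.66 TPM in WT, while Ifi207 (log2 ratio 0.44) and Ifi211 (0.21) were not.

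The 4 transcription factors lay between -0.32 and 0.48 on the log2 scale in KO over WT polyps. Irf7, which amplifies type I interferon production, was at 83.8 TPM in KO polyps against 94.8 TPM in WT polyps (log2 ratio -0.18). Irf9, the DNA-binding part of the type I complex, was at 35.4 TPM in KO polyps against 44.6 TPM in WT polyps (log2 ratio -0.32). Stat2 was at 34.4 TPM in KO polyps against 26.4 TPM in WT polyps (log2 ratio 0.37). Irf1, which both interferon types induce, was at 136.7 TPM in KO polyps against 97.6 TPM in WT polyps (log2 ratio 0.48). No factor crossed the threshold in any of the 4 comparisons.

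**Figure D3:**
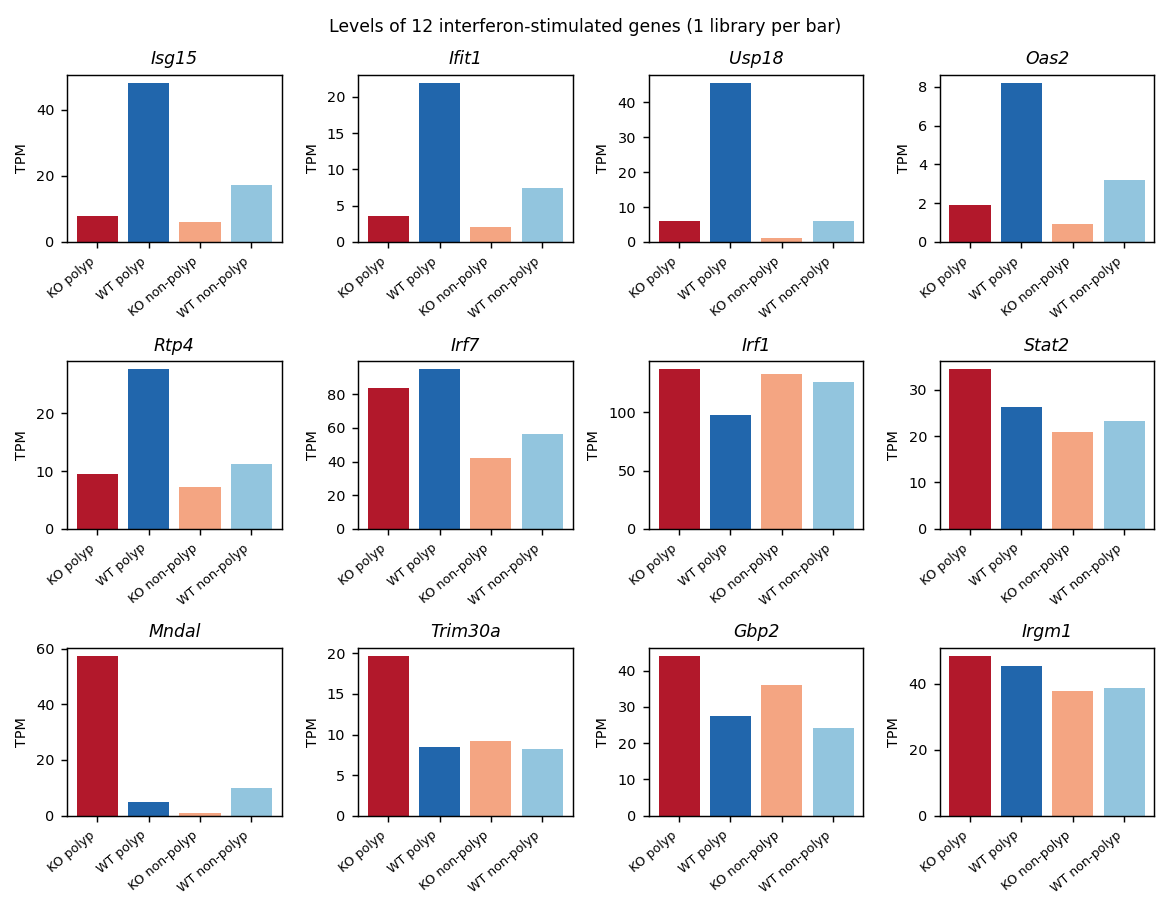
TPM of 12 members in the 4 libraries, 1 bar per library from an axis at 0, chosen to show effectors, transcription factors, a sensor and GTPases. Isg15, Ifit1, Usp18, Oas2 and Rtp4 have their tallest bar in WT polyps, while Irf1, Stat2, Mndal, Trim30a, Gbp2 and Irgm1 have it in KO polyps, at 137 TPM for Irf1 and 57.2 TPM for Mndal.

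The GTPases that interferon gamma induces act on the vacuoles of microbes inside cells and fall into the guanylate-binding proteins (Gbp) and the immunity-related GTPases (Irgm1, Irgm2, Igtp, Iigp1, Tgtp1 and Ifi47). In KO over WT polyps, 10 of the 11 lay between -0.34 and 0.66 on the log2 scale. Irgm1, the most abundant, was at 48.3 TPM in KO polyps against 45.4 TPM in WT polyps (log2 ratio 0.09), and Igtp at 27.9 TPM in KO polyps against 28.9 TPM in WT polyps (log2 ratio -0.05). Gbp2 was at 43.9 TPM in KO polyps against 27.4 TPM in WT polyps (log2 ratio 0.66). Gbp5, which also assists inflammasome assembly, was the exception at 5.84 TPM in KO polyps against 0.813 TPM in WT polyps (log2 ratio 1.92). That call was lost with the assembled locus, at a log2 ratio of 0.64, and with 5 TPM added in place of 1, at 0.90. Tgtp1 and Gbp6 share 81.2% and 70.7% of their 50-base stretches with other genes, so their levels are uncertain.

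The stretches of 150 bases just before the RefSeq start of 9 members are shown because they hold the elements through which type I and gamma signals are known to act, in members that were lower, near equal and higher in KO polyps. The ISRE core was searched as GAAANNGAAA and GAS as TTCNNNGAA on both strands (the first reads TTTCNNTTTC on the other strand), and matches of either are in capitals, overlapping matches run together. Sequences are from RefSeq on GRCm38.p6, 5′ to 3′ on the strand of the gene, and the RefSeq start can differ from that in the files, so that for Ifit1, Gbp2 and Oas3 the stretch reaches into the interval that the files list. The windows are Isg15 at chr4:156200819-156200968 (minus strand), Ifit1 at chr19:34640739-34640888 (plus strand), Ifit3 at chr19:34583379-34583528 (plus strand), Oas3 at chr5:120777660-120777809 (minus strand), Oas1a at chr5:120907526-120907675 (minus strand), Trim30a at chr7:104465194-104465343 (minus strand), Irf1 at chr11:53769864-53770013 (plus strand), Gbp2 at chr3:142620513-142620662 (plus strand) and Igtp at chr11:58199406-58199555 (plus strand).
Isg15: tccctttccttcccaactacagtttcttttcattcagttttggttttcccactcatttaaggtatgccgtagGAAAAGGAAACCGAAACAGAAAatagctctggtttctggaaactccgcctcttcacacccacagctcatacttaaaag
Ifit1: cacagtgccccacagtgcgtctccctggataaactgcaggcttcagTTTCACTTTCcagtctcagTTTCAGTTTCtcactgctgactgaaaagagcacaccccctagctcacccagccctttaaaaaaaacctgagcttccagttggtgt
Ifit3: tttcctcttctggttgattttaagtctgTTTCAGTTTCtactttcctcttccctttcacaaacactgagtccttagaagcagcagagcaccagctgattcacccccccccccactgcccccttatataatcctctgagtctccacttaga
Oas3: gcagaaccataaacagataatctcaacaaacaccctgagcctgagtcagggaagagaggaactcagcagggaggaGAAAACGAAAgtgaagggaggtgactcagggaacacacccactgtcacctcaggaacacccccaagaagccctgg
Oas1a: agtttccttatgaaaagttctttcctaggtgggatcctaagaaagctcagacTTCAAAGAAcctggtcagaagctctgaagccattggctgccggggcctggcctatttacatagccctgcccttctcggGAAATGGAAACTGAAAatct
Trim30a: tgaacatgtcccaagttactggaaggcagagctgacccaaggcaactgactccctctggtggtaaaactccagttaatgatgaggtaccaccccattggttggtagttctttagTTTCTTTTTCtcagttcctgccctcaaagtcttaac
Irf1: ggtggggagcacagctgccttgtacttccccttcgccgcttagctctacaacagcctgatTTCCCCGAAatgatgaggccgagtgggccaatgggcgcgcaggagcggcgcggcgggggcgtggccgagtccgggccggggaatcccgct
Gbp2: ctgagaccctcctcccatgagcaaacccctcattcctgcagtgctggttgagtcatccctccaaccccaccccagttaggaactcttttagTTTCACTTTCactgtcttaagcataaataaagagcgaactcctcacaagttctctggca
Igtp: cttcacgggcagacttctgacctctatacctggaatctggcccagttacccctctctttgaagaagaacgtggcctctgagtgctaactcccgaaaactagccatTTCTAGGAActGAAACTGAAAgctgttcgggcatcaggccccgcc

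Isg15 held 3 overlapping ISRE cores, Ifit1 held 2 apart, and Ifit3 and Oas3 held 1 each in these stretches, and all 4 genes were lower in KO polyps. Oas1a, near equal between genotypes, also held 2, and Trim30a, higher in KO polyps, held 1. Irf1 had a GAS and no ISRE core, and in Igtp a GAS stood 2 bases before an ISRE core. In the full windows, 250 bases before to 50 after the start, 22 of the 33 members with an entry held an ISRE core (66.7%) and 10 held a GAS (30.3%), beside 3.99% and 9.55% of 27025 genes. Of the type I type members, 14 of 24 held an ISRE core (58.3%) and 5 a GAS (20.8%). Of the GTPases, 8 of 9 held an ISRE core (88.9%) and 5 a GAS (55.6%). The ISRE core stood in 6 of the 10 lower members with an entry, in 12 of 19 members within the threshold and in all 4 higher ones. Among type I type members alone it stood in 6 of 10 lower ones and in 5 of 11 within the threshold. Its presence in the window thus did not separate the lower members from the rest. Among the lower members with an entry, Ifit2, Ifi44, Oasl2 and Cmpk2 had no ISRE core in these windows. No window was used for Usp18, Oas2, Mx1, Mx2, Rtp4, Ifi27l2a, Parp14, Dhx58, Zbp1, Ifi204, Gbp6 and Iigp1. For Ifit3b, Bst2, Mndal, Ifi203, Stat2 and Irgm2 the bases just after the start were not found in an annotated transcript of the gene, so their windows are less certain. A match is a run of letters and not evidence of binding.

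In non-polyp tissue the same comparison of genotypes gave 7 lower and 0 higher members, all 7 of the type I type. Over all 54595 gene names, 0.636% were lower and 0.76% higher, and at 5 TPM or more 1.23% and 1.46%. Of the 33 members at that level in this comparison 5 were lower and 0 higher. Isg15 was at 6.19 TPM in KO non-polyp tissue and 17.4 TPM in WT non-polyp tissue (log2 ratio -1.35), and Usp18 at 1.23 TPM in KO and 6.03 TPM in WT (log2 ratio -1.65). Ifit1 (log2 ratio -1.44), Ifit3b (-1.23), Oas2 (-1.13) and Ifit2 (-1.08) were lower as well. These 6 were thus lower in KO in both tissues, while Ifit3, Ifi44, Oas3, Oasl2, Rsad2, Rtp4 and Cmpk2 passed the threshold in polyps alone. How many of all gene names were lower in both tissues, or in polyps alone, was not counted.

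The seventh lower member in non-polyp tissue was Mndal, at 0.884 TPM in KO and 10.0 TPM in WT (log2 ratio -2.55), opposite to polyps. Its mean coverage in WT non-polyp tissue was 0.934 reads per base, and that in KO non-polyp tissue is not given. The median over the 34 type I type members in non-polyp tissue was -0.46, with 27 of them below 0, and that over the 11 GTPases was 0.26, with 8 above 0, beside 0.03 over all names at 5 TPM or more. No GTPase passed the threshold there: Iigp1 was at 8.31 TPM in KO and 4.55 TPM in WT (log2 ratio 0.75), and Gbp2 at 36.1 TPM in KO and 24.3 TPM in WT (log2 ratio 0.56). With 5 TPM added in place of 1, of the 7 lower members only Mndal passed the threshold, and Isg15 stood just inside it, beside 76 lower and 96 higher names.

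The genotype ratio in polyps minus that in non-polyp tissue gives the difference between tissues, as a description without a test. It was below -1 in 7 members and above 1 in 4, beside 4.85% and 5.22% of all gene names. The 7 were Ifi44 (-1.85), Ifit3 (-1.63), Oas3 (-1.45), Ifit2 (-1.16), Isg15 (-1.14), Ifit3b (-1.12) and Usp18 (-1.09), all effectors. The 4 were Mndal (5.81), Ifi203 (3.46), Gbp5 (2.35) and Ifi27l2a (1.56).

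Polyps were then set against non-polyp tissue within each genotype, which share libraries with the comparisons above. In WT mice 17 members were higher in polyps and 0 lower, beside 5.17% and 3.67% of all names, and 15.4% and 10.4% of names at 5 TPM or more. The 17 were 13 type I type members and 4 GTPases, all among the 40 members at that level. Usp18 was at 45.6 TPM in WT polyps against 6.03 TPM in WT non-polyp tissue (log2 ratio 2.73), and Ifi44 at 6.06 TPM in WT polyps against 0.715 TPM in WT non-polyp tissue (log2 ratio 2.04). Zbp1, at 49.5 TPM in WT polyps against 18.2 TPM in WT non-polyp tissue (log2 ratio 1.40), and Ddx58 (log2 ratio 1.21) were the sensors among them. The GTPases were Ifi47 (1.50), Iigp1 (1.26), Tgtp1 (1.21) and Gbp3 (1.02). Quantile normalization moved all names to 2233 higher and 2395 lower, against 2822 higher and 2004 lower as deposited, and members to 13 higher and 1 lower. With 5 TPM added, 9 members were higher, beside 1365 higher and 1055 lower names.

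In KO mice 9 members were higher in polyps and 0 lower, beside 3.29% and 0.989% of all names, and 9.16% and 1.97% of names at 5 TPM or more, where 8 of 32 members were higher. Mndal (log2 ratio 4.95) and Ifi203 (3.36) stood furthest out, followed by Gbp5 (1.68), Usp18 (1.64), Bst2 (1.23), Mx1 (1.17), Ifi47 (1.12), Ifi27l2a (1.08) and Trim30a (1.01). Only Usp18 and Ifi47 passed the threshold as higher in polyps in both genotypes. How many of all gene names did so was not counted. Ifit3 was at 3.98 TPM in KO polyps and 3.97 TPM in KO non-polyp tissue (log2 ratio 0.00), where WT mice gave 21.4 TPM in polyps and 6.19 TPM in non-polyp tissue (log2 ratio 1.64). Isg15 was at 7.75 TPM in KO polyps and 6.19 TPM in KO non-polyp tissue (log2 ratio 0.28). Quantile normalization gave 1471 names higher and 770 lower, against 1798 higher and 540 lower as deposited, and 6 members higher. With 5 TPM added, 3 members were higher, namely Mndal, Ifi203 and Bst2, beside 839 higher and 126 lower names.

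**Figure D4:**
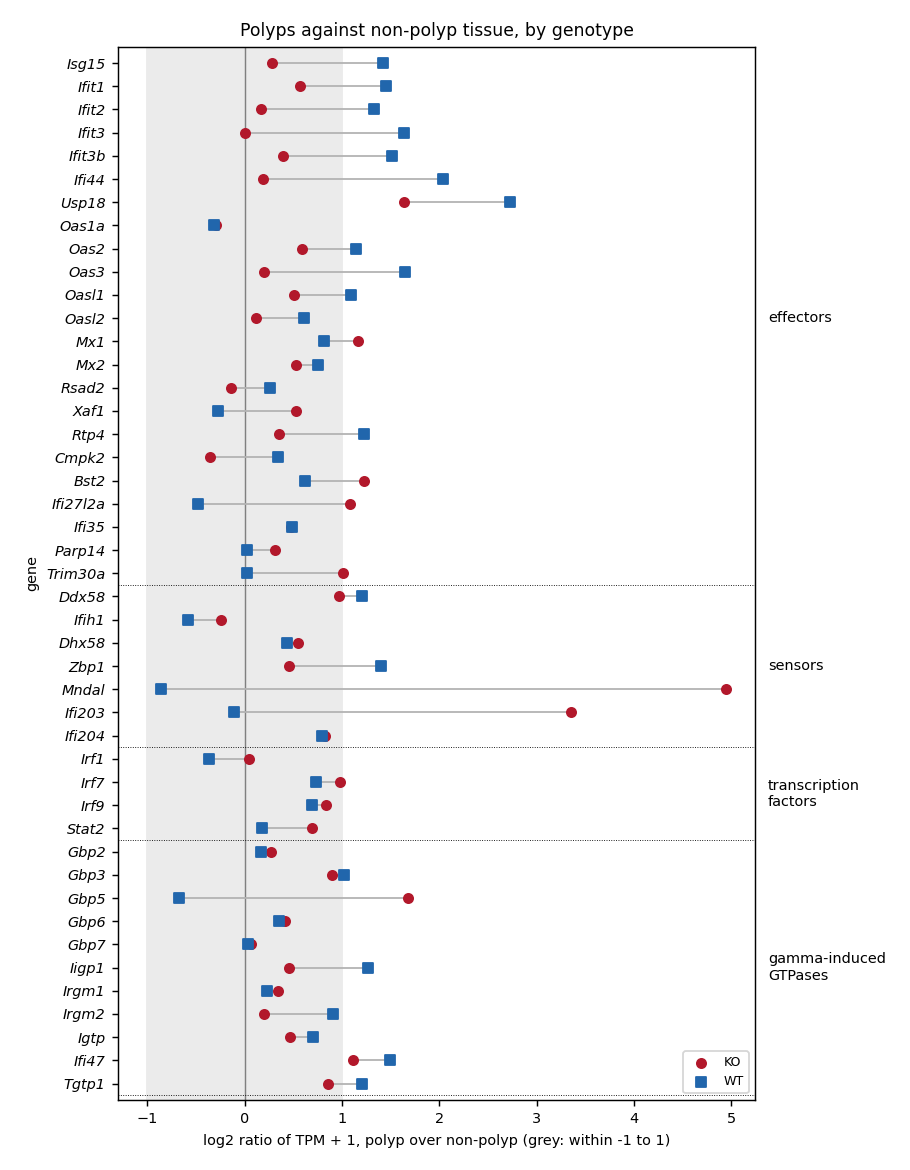
Log2 ratio of TPM + 1, polyp over non-polyp tissue, for each member in KO mice (circles) and WT mice (squares), with 1 library per group and the range from -1 to 1 in grey. Isg15 and the Ifit genes lie inside grey in KO and right of it in WT, while Mndal and Ifi203 lie far right in KO, at 4.95 and 3.36, and inside grey in WT.

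Genes that start the response were measured with the members. Of 21 interferon genes, the number listed at 0 was 19 in KO polyps and 18 in WT polyps, and in non-polyp tissue 19 in KO and 20 in WT. Ifne, a type I interferon of epithelia, was listed at 0 in KO polyps and at 1.53 TPM in WT polyps, and was listed at 0 in both libraries of non-polyp tissue. It was the only ligand called between the genotypes in polyps, as lower in KO. Ifng was at 0.377 TPM in KO polyps against 0.0921 TPM in WT polyps, and in non-polyp tissue at 0.195 TPM in KO against 0.0893 TPM in WT. Ifnb1 was listed at 0 in all 4 libraries. The other ligands did not pass the threshold in polyps, and no ligand reached 5 TPM in any library.

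Of the 6 receptor genes, 1 was higher in KO polyps and none was lower. Ifngr1, the ligand-binding chain of the gamma receptor, was at 342.9 TPM in KO polyps against 112.2 TPM in WT polyps (log2 ratio 1.60). In non-polyp tissue it was at 307.2 TPM in KO and 280.2 TPM in WT, so the WT polyp library was the one that stood low. Ifnar1 was at 43.4 TPM in KO polyps against 41.0 TPM in WT polyps (log2 ratio 0.08), and Ifnar2 and Ifnlr1 were at log2 ratios of 0.31 and -0.42.

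Of 13 kinases, transcription factors and inhibitors, 3 were higher and 1 lower in KO polyps. The higher genes were Irf4, Irf5 and Irf8, factors known for their part in lymphoid and myeloid cells. Irf5 was at 70.3 TPM in KO polyps against 11.8 TPM in WT polyps, Irf8 at 144.4 TPM in KO against 31.9 TPM in WT, and Irf4 at 19.5 TPM in KO against 0.533 TPM in WT. Socs3, an inhibitor of Jak signalling that interleukin 6 induces strongly, was lower at 25.9 TPM in KO polyps against 68.1 TPM in WT polyps (log2 ratio -1.36).

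Of 14 listed genes of sensing and induction, 3 were higher and 1 lower in KO polyps. Tmem173 (STING), the adaptor of cytosolic DNA sensing, was lower at 48.4 TPM in KO polyps against 104.9 TPM in WT polyps (log2 ratio -1.10). In non-polyp tissue it was at 13.7 TPM in KO and 14.8 TPM in WT, so both polyp libraries stood above both non-polyp libraries. The higher genes were Tlr9, the receptor of unmethylated CpG DNA, at 21.3 TPM in KO polyps against 1.92 TPM in WT polyps, Samhd1, which degrades nucleotides, at 103.1 TPM in KO against 30.9 TPM in WT, and Tlr7 at 2.98 TPM in KO against 0.261 TPM in WT.

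Of 37 further interferon-induced genes that were listed, 5 were lower and 12 higher in KO polyps, at a median ratio (log2) of 0.47. The lower ones were the membrane proteins Ifitm1, Ifitm2 and Ifitm3, which hinder viral entry, and the apolipoprotein L genes Apol9a and Apol9b. Ifitm3 was at 199.4 TPM in KO polyps against 2060 TPM in WT polyps (log2 ratio -3.36), and at 133.4 TPM in KO and 204.8 TPM in WT non-polyp tissue. Ifitm1 was at 83.7 TPM in KO polyps against 680.2 TPM in WT polyps (log2 ratio -3.01), and Apol9a at 0.251 TPM in KO against 8.99 TPM in WT (log2 ratio -3.00). The higher ones were, besides the 4 HIN-200 genes given above, Sp110 (log2 ratio 2.75), Sp100 (2.04), Trim30b (1.73), Slfn2 (1.71), Slfn8 (1.40), Trim30d (1.39), Samd9l (1.25) and Ifi27 (1.03).

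Of 18 other gamma-induced genes, 7 were higher and 0 lower in KO polyps, at a median ratio (log2) of 0.60. Ciita, the master regulator of MHC class II genes, which B cells express at rest, was at 44.9 TPM in KO polyps against 2.02 TPM in WT polyps (log2 ratio 3.93). Ubd, a protein of ubiquitin type, was at 112.6 TPM in KO polyps against 36.4 TPM in WT polyps (log2 ratio 1.60). Serpina3g (1.49), Batf2 (1.36), Cd274 (1.27), Nlrc5 (1.19) and Gbp8 (1.11) were the others. The chemokines that gamma induces were not called: Cxcl9 was at 4.82 TPM in KO polyps against 4.09 TPM in WT polyps, and Cxcl10 at 5.41 TPM in KO and 9.39 TPM in WT.

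Markers of several cell types moved between the same libraries. All 6 leukocyte markers, all 9 B cell markers and 8 of 11 T and NK cell markers were higher in KO polyps. B cell markers summed to 1322 TPM in KO polyps against 37.5 TPM in WT polyps, and to 46.4 TPM in KO against 61.2 TPM in WT non-polyp tissue. Of 9 neutrophil markers 6 were lower and 1 higher in KO polyps: S100a9 was at 2.07 TPM in KO polyps against 100.9 TPM in WT polyps, while Ly6g was at 172.1 TPM in KO polyps against 74.0 TPM in WT polyps. In non-polyp tissue Ly6g was at 188.9 TPM in KO and 166.1 TPM in WT, so WT polyps held its lowest level. Camp, listed at 0 in KO polyps and at 0.336 TPM in WT polyps, did not pass the threshold. Of 12 macrophage and monocyte markers 4 were higher and 1 lower, and their sum was 2893 TPM in KO polyps against 883.6 TPM in WT polyps. Lyz2 made up most of that sum in KO polyps, at 2095 TPM, but not in WT polyps, at 341.0 TPM.

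Plasmacytoid dendritic cells are known for their type I interferon output. Of 7 markers on their list 5 were higher and 2 lower in KO polyps, none at 0, with sums of 1809 TPM in KO against 276.7 TPM in WT polyps, and of 2846 TPM in KO against 3721 TPM in WT non-polyp tissue. These sums were mostly Klk1. Among the 5 higher markers Siglech was at 6.60 TPM in KO polyps against 0.191 TPM in WT polyps. The 2 lower ones were Tcf4 and Runx2. Tcf4 was at 4.95 TPM in KO polyps against 42.1 TPM in WT polyps (log2 ratio -2.86). Runx2 was at 0.409 TPM in KO against 7.25 TPM in WT (log2 ratio -2.55). Tcf4 was also the only marker of this list called in non-polyp tissue, lower at 5.72 TPM in KO and 19.5 TPM in WT (log2 ratio -1.61). All 7 smooth muscle markers and 7 of 8 colonocyte markers were higher in KO polyps than in WT polyps. Colonocyte markers summed to 4919 TPM in KO polyps against 830.2 TPM in WT polyps, with 5877 TPM in KO and 4334 TPM in WT non-polyp tissue. Smooth muscle markers summed to 1518 TPM in KO polyps against 394.3 TPM in WT polyps, with 4864 TPM in KO and 5020 TPM in WT non-polyp tissue. Both sums were lowest in WT polyps. In bulk tissue, fewer cells of a type and less RNA per cell cannot be told apart, and the part of cell makeup in the ratios of the members was not tested. Of the 12 pan-epithelial markers 2 were lower in KO polyps, Cldn4 and Krt18, and 0 were higher. Cldn4 was at 25.3 TPM in KO polyps against 584.2 TPM in WT polyps (log2 ratio -4.48), Krt18 at 293.5 TPM in KO against 1054 TPM in WT (log2 ratio -1.84) and Col1a1 at 52.3 TPM in KO against 184.4 TPM in WT (log2 ratio -1.80). Of the 6 fibroblast markers, Col1a1 was the one that was lower and 1 other was higher in KO polyps. In non-polyp tissue the leukocyte sums were 128.8 TPM in KO and 165.7 TPM in WT, and 1 of 6 leukocyte markers was lower and none higher. S100a9 was the 1 of 9 neutrophil markers that was lower there, at 0.503 TPM in KO and 3.74 TPM in WT (log2 ratio -1.66).

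**Figure D5:**
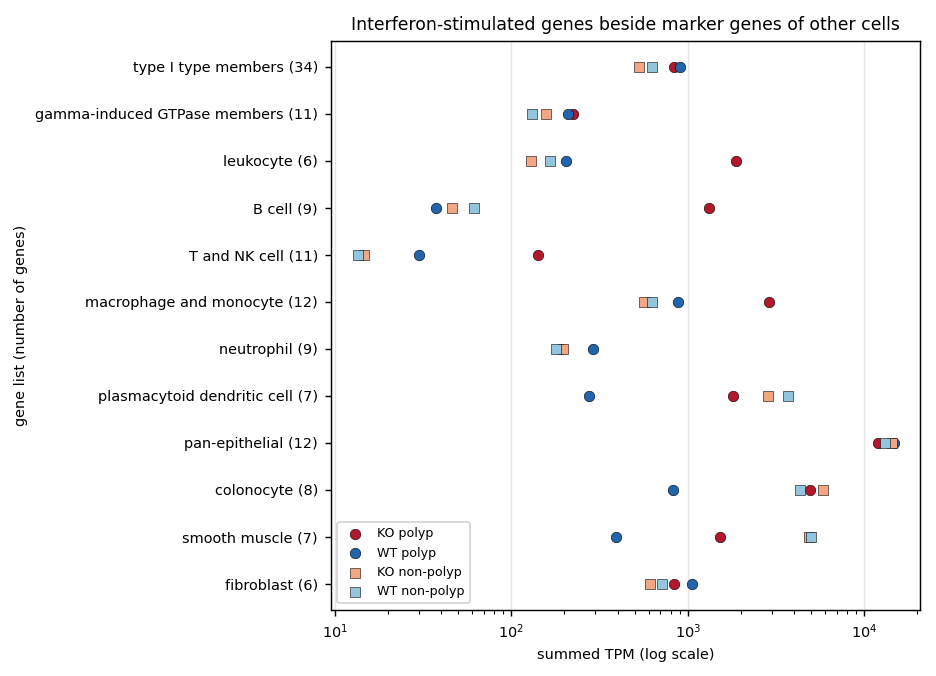
Summed TPM (log axis) of the members and of marker genes of other cells in the 4 libraries, with the number of genes in brackets. The type I type members sum to 840.0 TPM in KO polyps against 904.2 TPM in WT polyps. Leukocyte markers sum to 1882 TPM in KO and 204.1 TPM in WT polyps. Colonocyte markers sum to 4919 TPM in KO and 830.2 TPM in WT polyps, with 5877 TPM in KO and 4334 TPM in WT non-polyp tissue.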

How the data were processed

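RNA was sequenced from 4 pools, 1 per group. The authors aligned to GRCm38 (mm10) and estimated gene levels with StringTie, per the submitters' processing notes; the version is not given in the sources used here. The labels and the study's methods name different library kits, and strand is not stated. The other 3 deposited tables give coverage (mean read depth per base), FPKM (fragments per kilobase of gene and depth) and TPM; in them assembled loci, which sum to 1000000 TPM, stand beside the reference genes used here. The deposited KO non-polyp table gives TPM in column 4 and the authors' ratio of it to Gapdh, which was not used.

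TPM was summed per gene name. Ratios are log2 of TPM + 1 with a threshold of 1, the study's own. Coordinates of 44 of 45 members equal those of GENCODE vM21. Members and lists were chosen with earlier results of these data known. All members are named; of the other lists, genes at 5 TPM or more past the threshold in polyps (any named outside this rule were chosen after their values were seen). The procedure was tested on simulated data. Alternatives took other pseudocounts (0.1 or 5 TPM), only genes at 5 TPM, FPKM, 2 rescalings, median-of-ratios, quantile normalization, the highest entry per name and the assembled locus. Protein sequences were not used here, and 1 gene of the signalling list is not reported here. Software was Python 3.11.15, pandas 2.3.3, numpy 2.4.6, plus matplotlib 3.10.9 for plots.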

Additional observations from a re-analysis of the deposited data

Results flagged for a closer look

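Mndal was the only member past the threshold in opposite directions in the 2 tissues. Its log2 ratio of KO over WT was 3.26 in polyps and -2.55 in non-polyp tissue, a difference of 5.81, and it was not tested, since each group held 1 library. In polyps it stood at 57.2 TPM in KO against 5.08 TPM in WT, and in non-polyp tissue at 0.884 TPM in KO against 10.0 TPM in WT. Coverage of KO non-polyp tissue is not given. In the other libraries Mndal had a mean coverage of 6.35 (KO polyp), 0.732 (WT polyp) and 0.934 (WT non-polyp) reads per base. Its neighbour Ifi203 was at log2 ratios of 2.89 and -0.57 in the same comparisons. The listed interval of Mndal overlaps that of Ifi203 on the same strand.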

How the results depend on the processing

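No paired analysis was possible because each group held 1 library, and for the same reason no library could be left out. With a pseudocount of 5 TPM, counts past the threshold fell to 9 of the 45 members in KO against WT polyps (9 of the type I type and 0 GTPases, against 16 and 1), to 1 in KO against WT non-polyp tissue (1 of the type I type), to 9 in WT polyps against WT non-polyp tissue (8 and 1) and to 3 in KO polyps against KO non-polyp tissue (3 and 0). A larger pseudocount pulls low levels together by construction. In KO against WT polyps that setting kept 7 members lower, namely Isg15, Usp18, Rtp4 and the 4 Ifit genes, and 2 higher, Mndal and Ifi203. The GTPases past the threshold in WT polyps against WT non-polyp tissue numbered 2 with FPKM, and in KO polyps against KO non-polyp tissue 1 with quantile normalization; the cause was not tested. Isg15, Usp18, Rtp4 and the 4 Ifit genes kept their call in polyps under all 10 alternatives, with Usp18 between -2.92 and -2.21 and Isg15 between -2.62 and -2.06.

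Taking the assembled locus in place of the reference gene was chosen after seeing the data. It gave 3 GTPases past the threshold in KO against WT polyps, because Igtp and Irgm2 fell in 1 shared locus (log2 ratio -1.05 for both) and Gbp7 reached 1.78 while Gbp5 lost its call. Of the type I type members Oas2, Oas3 and Rsad2 lost their lower call (-0.80, -0.96 and -0.69), and Mx1, Mx2 and Ifi204 gained one (-1.04, -1.92 and -1.61). For Mndal and Ifi203 no locus on the same strand was found in KO polyps, so they had no ratio between genotypes there. The annotated genes were at 57.2 and 32.9 TPM in that library. In WT polyps 1 locus held Ifi203, Mndal and Ifi204 at 16.8 TPM, against 3.57 TPM for Ifi203 and 5.08 TPM for Mndal as annotated. With the assembled locus, Ifi203 in WT polyps against WT non-polyp tissue turned to 1.61. Median-of-ratios scaling and quantile normalization moved the median of all names at 5 TPM or more in WT polyps against WT non-polyp tissue to 0.08 and 0.06, against 0.24 as deposited, and quantile normalization moved that of KO polyps against KO non-polyp tissue to -0.09, against 0.03 as deposited. The median of the 34 type I type members in KO against WT polyps stayed between -0.78 and -0.29, and that of the GTPases lay between -0.09 and 0.07 and so had no stable sign. One library per group and a depth that is unknown for KO non-polyp tissue limit all differences, most of all for members under 5 TPM.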

Other observations

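Lgals3bp, a secreted glycoprotein on the list of further interferon-induced genes, was at 138.0 TPM in KO polyps against 252.6 TPM in WT polyps (log2 ratio -0.87), and at 72.1 TPM in KO and 80.7 TPM in WT non-polyp tissue. Aim2, a DNA sensor that lies in the HIN-200 family but was not a member here, was at 79.9 TPM in KO polyps against 52.3 TPM in WT polyps (log2 ratio 0.60), and at 34.5 TPM in KO and 61.5 TPM in WT non-polyp tissue (log2 ratio -0.82). Apol9a was the only one of the 37 further interferon-induced genes past the threshold between genotypes in non-polyp tissue, at 0.203 TPM in KO and 1.66 TPM in WT (log2 ratio -1.15).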
